A study of Mus musculus with 14 samples.

Results

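Osteoblast lineage genes were examined in RNA-seq counts from mouse bone marrow cells exposed to IL-1β or PBS. The set holds 9 named genes of the 55487 genes in the count tables, named as regulators, enzymes and matrix proteins of bone formation: Runx2, Dlx5, Sp7, Alpl, Phex, Spp1, Ibsp, Bglap and Dmp1. Mesenchymal stromal cells (MSC) were grown from wild-type C57BL/6 bone marrow for 21 days and then kept with PBS (2 libraries, labelled replicates 2 and 3) or with IL-1β at 5 ng/ml (2 libraries, replicates 1 and 2) for 72 h. For comparison, marrow cells of the LSK fraction (Lin-Sca1+c-kit+), which holds the stem cells, and of the LK fraction (Lin-c-kit+), which holds committed progenitors, were sorted from mice injected intraperitoneally with PBS (3 libraries per fraction) or with 0.5 μg IL-1β (2 libraries per fraction) 3 times a week for 16 weeks. The blood cells of both treatment groups carried the heterozygous Jak2V617F allele. This allele had been switched on with Mx1Cre, an interferon-inducible Cre that is not restricted to stem cells, and the cells grew in C57BL/6 recipients of the marrow, so the stroma of these mice was that of the host. Nothing in the labels says whether the MSC libraries came from separate animals or cultures, so their p-values measure only the spread between these libraries.

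Osteoblasts arise from mesenchymal progenitors, which bone marrow stromal cultures contain. Runx2 is the transcription factor that commits these cells to bone, Dlx5 is a homeobox factor that favours its expression, and Sp7 (osterix) acts after Runx2 in cells that become osteoblasts. Alpl, the tissue-nonspecific alkaline phosphatase, marks the onset of mineralisation. The products of Spp1 (osteopontin), Ibsp (bone sialoprotein) and Bglap (osteocalcin) are deposited in the bone matrix, and Phex and Dmp1 are most abundant in late osteoblasts and osteocytes, the cells embedded in bone. Some of these genes are used outside bone: osteopontin is abundant in activated macrophages, and Runx2 is also transcribed in blood progenitors. Inflammatory cytokines such as IL-1β are known to act on both bone-forming and bone-resorbing cells.

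In the annotation of the count tables (GRCm38), Spp1 lies on chromosome 5 from 104435118 to 104441050 on the plus strand. Ibsp (104299171 to 104311469) and Dmp1 (104202613 to 104214102) lie on the same strand of chromosome 5, in a cluster of genes for mineral-binding matrix proteins. Runx2 spans chromosome 17 from 44495987 to 44814797, Sp7 chromosome 15 from 102356606 to 102367182 and Alpl chromosome 4 from 137741733 to 137796384, all on the minus strand. Dlx5 lies on chromosome 6 from 6877805 to 6882085, Bglap on chromosome 3 from 88383501 to 88384464 and Phex on chromosome X from 157162075 to 157415312, also on the minus strand. Bglap has the close copies Bglap2 (88377736 to 88378699) and Bglap3 (88368616 to 88372743) beside it, and read pairs that map to several places were not counted, so the counts of these 3 genes are uncertain.

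Because Runx2 is itself one of these genes and was counted in every library, the 250 bases before the annotated start of these genes were searched for the core that Runx proteins bind (ACCACA, or TGTGGT when read on the other strand). RefSeq promoters of GRCm38.p6 were found for 7 of the 9 genes (none for Sp7 and Dlx5), as 10 windows, since some genes have more than 1 start. The core was present in 4 of the 10 windows, once each for Runx2, Bglap, Spp1 and Dmp1, and in 14.05% of all 32851 windows of this length. Below are the windows of Bglap (chr3:88384467-88384716, minus strand) and Spp1 (chr5:104434861-104435110, plus strand), 2 matrix genes with a match but very different counts in MSC, and that of the upstream Alpl start (chr4:137796385-137796634, minus strand), which has none. The sequences are written 5′ to 3′, with the core in capitals.
Bglap: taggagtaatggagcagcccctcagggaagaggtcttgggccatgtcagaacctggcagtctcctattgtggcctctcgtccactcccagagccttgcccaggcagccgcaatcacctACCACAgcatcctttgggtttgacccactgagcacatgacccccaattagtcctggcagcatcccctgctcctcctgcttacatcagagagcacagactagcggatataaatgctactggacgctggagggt
Spp1: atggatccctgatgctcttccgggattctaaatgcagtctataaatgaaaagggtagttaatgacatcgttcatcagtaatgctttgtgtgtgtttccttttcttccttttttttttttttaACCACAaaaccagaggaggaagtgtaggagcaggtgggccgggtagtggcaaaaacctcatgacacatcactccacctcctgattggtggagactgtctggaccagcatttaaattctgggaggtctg
Alpl: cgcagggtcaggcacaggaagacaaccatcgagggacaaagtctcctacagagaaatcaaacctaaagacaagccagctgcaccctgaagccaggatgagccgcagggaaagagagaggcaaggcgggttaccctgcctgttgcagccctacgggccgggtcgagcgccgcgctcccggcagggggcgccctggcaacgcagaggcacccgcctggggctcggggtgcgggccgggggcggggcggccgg
The core starts 132 bases before the start of Bglap and 128 bases before that of Spp1, and the matches of Runx2 and Dmp1 start 80 and 164 bases before theirs. These starts are those of RefSeq. For Runx2 the RefSeq start and the match lie inside the gene as placed in the annotation of the count tables. A match is a description of the letters and says nothing of binding.

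The MSC libraries held 5834909 (PBS replicate 2), 13155033 (PBS replicate 3), 30871055 (IL-1β replicate 1) and 11681794 (IL-1β replicate 2) counted read pairs, the 5 LSK libraries 4393233 to 16271408 and the 5 LK libraries 6367352 to 18544346. In both sorted fractions every IL-1β library was shallower than every PBS library. Levels are given as CPM, the counts of a gene scaled to the total of counted read pairs of its library. The label MSC was checked against marker genes. Of 15 mesenchymal markers, Col1a1, Col3a1 and Cxcl12 had the highest mean CPM, whereas Lepr had 0 counts in both PBS libraries and at most 0.514 CPM with IL-1β. Macrophage markers were also counted. The summed level of 18 of them was 19621 and 24722 CPM with PBS and 40570 and 40688 CPM with IL-1β, with Lyz2, Mpeg1 and C1qb highest, while Cd163 stayed at or under 0.343 CPM. The 15 mesenchymal markers summed to 1160 and 2289 CPM with PBS and 3365 and 3656 CPM with IL-1β. The median mesenchymal marker was at 43.7 to 58.6 CPM in the MSC libraries, and the median macrophage marker at 703 to 828 CPM. RNA of macrophage markers was thus counted at a much higher level than that of stromal markers in each MSC library. The female-specific transcript Xist had 0 counts in PBS replicate 3 and 45.8 to 68.1 CPM in the other MSC libraries, and its part in the results was not tested. Of the sorting markers, Kit was at 274.7 to 636 CPM in all LSK and LK libraries, and Ly6a (Sca1) was at 14.5 to 40.6 CPM in LSK libraries and had at most 15 counts in LK libraries.

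One MSC library stood apart for these genes. PBS replicate 2 was the highest of the 4 libraries for 8 of the 9 genes, all but Spp1, and was the highest for 31.1% of the 13239 genes tested. The levels of the 8 genes other than Spp1 summed to 57.6 CPM in PBS replicate 2 and 19.6 CPM in PBS replicate 3, with 28.7 and 25.9 CPM in the IL-1β libraries between them. The ratio of PBS replicate 2 to PBS replicate 3 was 20.3 for Phex, 14.2 for Ibsp, 5.20 for Alpl, 4.51 for Dmp1, 4.28 for Sp7, 3.38 for Dlx5 and 1.30 for Runx2, and Bglap had no count in PBS replicate 3. For this reason the changes of Runx2, Sp7, Dlx5, Alpl, Spp1, Ibsp and Phex within MSC are also given without either PBS library. Such fits are not given gene by gene for the other osteoblast genes and the markers named below. A fit that leaves a treatment with 1 library assumes that this library varies like the others. Without PBS replicate 2, the only PBS library left is replicate 3, which had no Xist count while both IL-1β libraries had Xist. Treatment and a difference in sex of the cells cannot be told apart in those fits. The treatments were also unbalanced for Xist in the comparison of all 4 libraries, since only PBS replicate 3 lacked it.

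**Figure D1:**
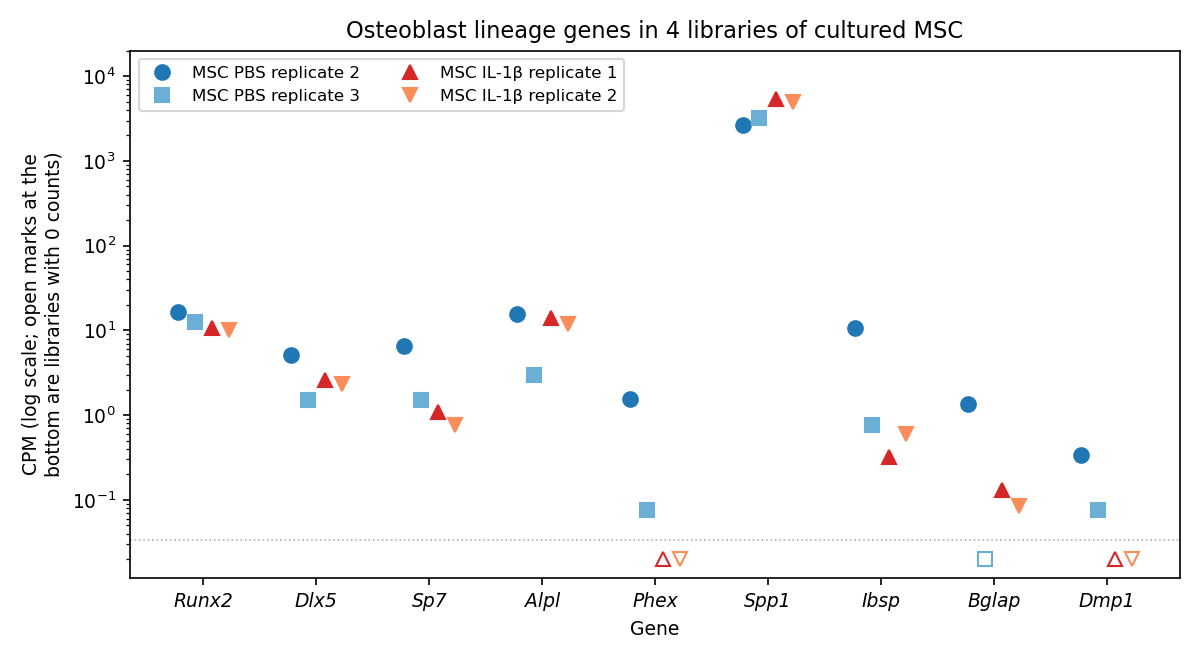
CPM (log axis) of the 9 genes in each of the 4 MSC libraries, with blue marks for PBS and red or orange marks for IL-1β; open marks at the bottom are libraries with 0 counts. PBS replicate 2 (dark blue circles) is the highest mark for every gene but Spp1, which lies at 2694 to 5393 CPM, far above the others.

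Compared per length, Spp1 was by far the most abundant of the 9 genes in MSC. With PBS it was at 1804 ± 240 CPM per kb of exonic length (SD, n = 2), against 2.79 ± 3.43 for Ibsp, 2.28 ± 2.18 for Alpl, 1.65 ± 0.301 for Runx2, 1.47 ± 1.13 for Dlx5, 1.18 ± 1.04 for Sp7, 1.11 ± 1.57 for Bglap, 0.129 ± 0.165 for Phex and 0.0758 ± 0.0682 for Dmp1 (SD, n = 2 each). Spp1 made up 97.9% to 99.5% of the summed CPM of the 9 genes in the 4 MSC libraries. The PBS ranges of Ibsp, Alpl, Runx2, Dlx5, Sp7 and Bglap overlapped each other, and those of Phex and Dmp1 lay below all of these but the range of Bglap. The osteocyte genes Sost, Fgf23 and Mepe had 0 counts in all 4 libraries, which allows up to 3 counts in each.

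Of the 9 genes, 5 had enough counts to be tested between PBS and IL-1β in MSC, and 1 of them was called. Spp1 rose with IL-1β, and Runx2, Dlx5, Sp7 and Alpl did not pass the test. Calls required a log2 fold change beyond 0.5 in either direction and an adjusted p below 0.05 from the quasi-likelihood test of edgeR, adjusted by the Benjamini-Hochberg method over all 13239 genes tested. These rules called 7.14% of all genes tested higher and 4.31% lower. Ibsp, Bglap, Phex and Dmp1 were removed by the filter on low counts. In bulk RNA, fewer cells of a type and less RNA per cell cannot be told apart, which holds for each change below.

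Among the regulators, Runx2 was at 16.5 and 12.7 CPM in PBS replicates 2 and 3, and at 10.6 and 10.1 CPM in IL-1β replicates 1 and 2. Both IL-1β libraries lay below both PBS libraries, as for 34.3% of all genes tested. The log2 fold change was -0.42 (standard error 0.19, 95% interval -0.79 to -0.05), which missed the threshold (adjusted p by edgeR = 0.201). The approximate interval leaves out 0, but the test itself gave p by edgeR = 0.0690 before adjustment. Runx2 was called lower without PBS replicate 3 (log2 fold change -0.59, adjusted p by edgeR = 0.0345), and was at -0.24 without PBS replicate 2 (adjusted p by edgeR = 0.307).

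Sp7, which marks cells committed to the osteoblast fate, was at 6.51 and 1.52 CPM with PBS (38 and 20 counts) and at 1.101 and 0.770 CPM with IL-1β (34 and 9 counts). The groups did not overlap, but the PBS libraries differed more from each other than the lower of them did from the IL-1β libraries. The log2 fold change was -1.90 (standard error 0.75, 95% interval -3.37 to -0.44, adjusted p by edgeR = 0.157). Its size rested on PBS replicate 2: it was -0.57 without that library (adjusted p by edgeR = 0.423) and -2.64, with a call, without PBS replicate 3 (adjusted p by edgeR = 0.000166). Sp7 was also called lower with no filter on low counts (log2 fold change -1.87, adjusted p by edgeR = 0.00881).

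Dlx5 was at 5.14 and 1.52 CPM with PBS and at 2.59 and 2.31 CPM with IL-1β, so that the IL-1β libraries lay between the PBS libraries. The log2 fold change of -0.27 (standard error 0.59, 95% interval -1.43 to 0.88, adjusted p by edgeR = 0.797) turned to 0.76 without PBS replicate 2 and was -0.97 without PBS replicate 3, and neither passed the adjustment (adjusted p by edgeR = 0.145 and 0.0523). No direction can be given for Dlx5 from these libraries.

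Of the enzymes, Alpl was at 15.4 and 2.96 CPM with PBS (90 and 39 counts) and at 13.9 and 11.98 CPM with IL-1β (430 and 140 counts). Both IL-1β libraries lay just under PBS replicate 2 and well above PBS replicate 3. The log2 fold change was 0.68 (standard error 0.73, 95% interval -0.76 to 2.12, adjusted p by edgeR = 0.595). Without PBS replicate 2 it was 2.20, with a call (adjusted p by edgeR = 2.41e-07), and without PBS replicate 3 it was -0.16 (adjusted p by edgeR = 0.594). The direction for Alpl was therefore set by which PBS library was used, and the PBS libraries also differed in Xist.

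Phex, an endopeptidase of the bone cell surface, had 9 counts in the second PBS library, 1 in the third and none with IL-1β, which made it at least 7.47-fold lower against a floor of 3 counts over the IL-1β group. Of its 10 PBS counts, 9 came from 1 library. With single libraries left out, a choice made after seeing the data, the bound was 2.05-fold without IL-1β replicate 1 and 21.9-fold without PBS replicate 3, and without PBS replicate 2 too few counts remained for a fold. It was not tested after the filter, and with no filter on low counts it was called lower (adjusted p by edgeR = 0.0136).

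**Figure D2:**
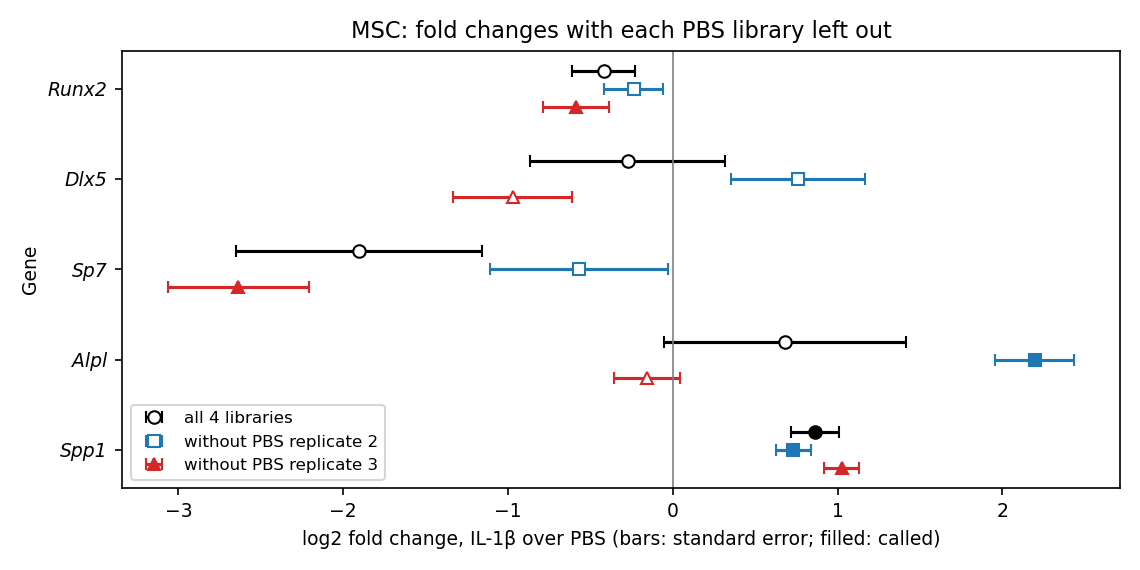
Log2 fold change of IL-1β over PBS in MSC (x axis) for the 5 tested genes, with bars for the standard error, from all 4 libraries (black circles) and without PBS replicate 2 (blue squares) or 3 (red triangles); filled marks were called. Spp1 stays between 0.73 and 1.02, while Alpl runs from -0.16 to 2.20 and Dlx5 from -0.97 to 0.76.

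Of the matrix genes, Spp1 was at 2694 and 3253 CPM with PBS (15718 and 42792 counts) and at 5393 and 5013 CPM with IL-1β (166495 and 58559 counts). The treatments did not overlap, and 26.8% of all genes tested had both IL-1β libraries above both PBS libraries. The rise was 1.82-fold, a log2 fold change of 0.86 (standard error 0.14, 95% interval 0.58 to 1.15, adjusted p by edgeR = 0.0210). It was 0.73 without PBS replicate 2 and 1.02 without PBS replicate 3, with a call in both. Without IL-1β replicate 1 or 2 the log2 fold change was 0.83 or 0.90, and Spp1 was not called (adjusted p by edgeR = 0.300 and 0.229), nor was it in a fit of all 14 libraries (0.90, adjusted p by edgeR = 0.168).

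The summed level of macrophage markers moved in the same direction as Spp1. The median CPM over the 18 markers changed little, from 793 and 703 with PBS to 828 and 732 with IL-1β. Of 17 macrophage markers tested, 8 were called higher and none lower, with a median log2 fold change of 0.53 over the list and 0.00 over all genes. Lyz2 rose from 7332 and 4848 CPM to 19631 and 20180 CPM (log2 fold change 1.77, adjusted p by edgeR = 0.00865). Its rise made up most of the rise of the sum. Adgre1, the gene of the macrophage antigen F4/80, rose by a log2 fold change of 1.32 (adjusted p by edgeR = 0.00468), and C1qa by 0.67 (adjusted p by edgeR = 0.0195). The summed mesenchymal markers were also higher, at 1160 and 2289 CPM with PBS and 3365 and 3656 CPM with IL-1β. Dcn and Vcam1 were called higher and Nes lower. The median over these 15 markers was 58.6 and 43.7 CPM with PBS, and 54.3 and 50.2 CPM with IL-1β. Col3a1 had means of 353 CPM with PBS and 1381 CPM with IL-1β, and Col1a1 of 623 and 1173 CPM. Neither was called (adjusted p by edgeR = 0.0851 and 0.147). The part of either marker list in the rise of Spp1 was not tested.

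**Figure D3:**
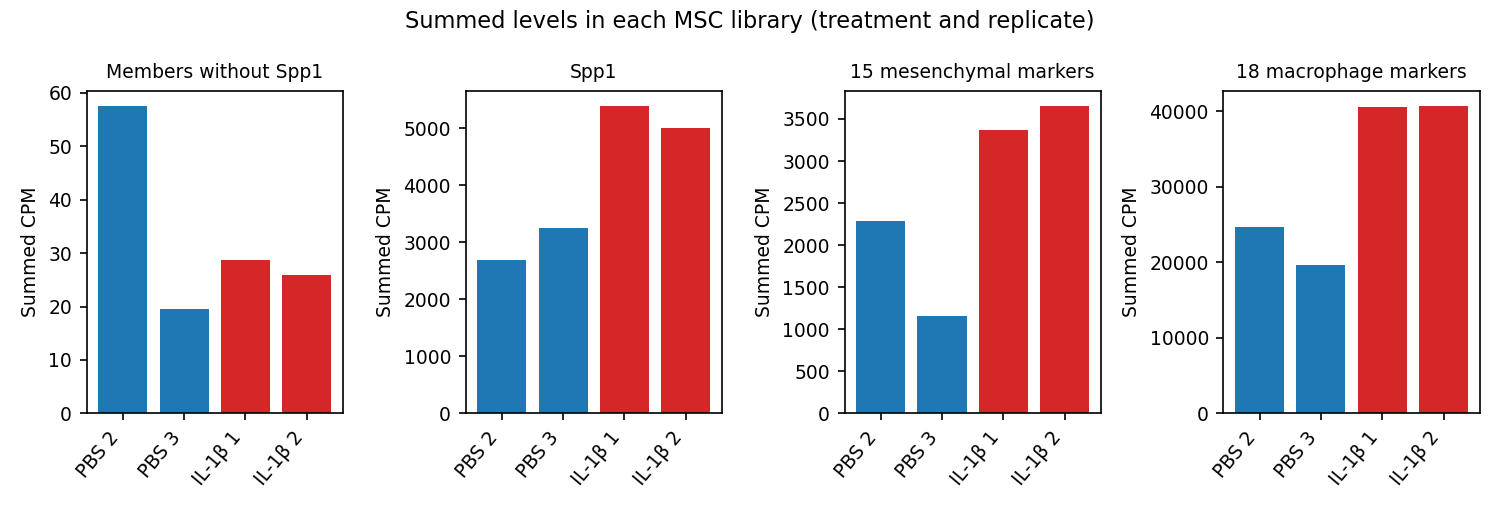
Summed CPM in each MSC library (bars from 0, blue PBS and red IL-1β, labelled by treatment and replicate) of the 8 genes other than Spp1, of Spp1, of 15 mesenchymal markers and of 18 macrophage markers. The 8 genes are highest in PBS replicate 2 at 57.6 CPM, while the IL-1β bars of Spp1 and of both marker sums stand above the PBS bars.

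Ibsp, a late osteoblast product, was at 10.8 and 0.760 CPM with PBS (63 and 10 counts) and at 0.324 and 0.599 CPM with IL-1β (10 and 7 counts). PBS replicate 2 stood far above the other 3 libraries, which held 10 counts or fewer each. Ibsp was not tested after the filter. With no filter it was called lower (log2 fold change -3.53, adjusted p by edgeR = 0.000160), and with a filter that asked for 10 or more reads in 2 or more libraries it was not (-3.58, adjusted p by edgeR = 0.168). It was called lower without PBS replicate 3 (-4.63, adjusted p by edgeR = 4.06e-07) and not without PBS replicate 2 (-0.82, adjusted p by edgeR = 0.454).

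Bglap had 8 and 0 counts with PBS and 4 and 1 with IL-1β, Bglap2 had 12 and 0 against 12 and 2, and Bglap3 had 2 and 2 against 7 and 2. None of the 3 osteocalcin genes had enough counts for a test in the comparison of all 4 libraries. Dmp1 had 2 and 1 counts with PBS and 0 in both IL-1β libraries, and no fold is given because both groups were at or under the floor of 3 counts. Bglap, Dmp1 and Phex thus had at most 9 counts in any MSC library.

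The other genes of the osteoblast programme were taken from 6 lists of regulators, BMP and Wnt pathway genes, matrix genes, receptors and osteocyte genes, 95 genes in all. Of these, 76 were tested in MSC. IL-1β-treated MSC had 6 of them called higher and 4 lower than PBS-treated MSC, and their median log2 fold change was 0.00, as over all genes. Of all genes tested, 7.14% were called higher and 4.31% lower, so both counts were near the share over all genes. The same shares apply to each list below. Of 16 transcription regulators, Twist2, a factor that restrains Runx2 in early progenitors, rose from 3.60 and 4.10 CPM to 7.16 and 8.47 CPM (log2 fold change 1.05, adjusted p by edgeR = 0.0469). Dlx3, a homeobox factor of the same family as Dlx5, fell from 1.54 and 1.37 CPM to 0.0972 and 0.257 CPM (log2 fold change -3.15, adjusted p by edgeR = 0.0445). DESeq2 called neither (adjusted p by DESeq2 = 0.0750 for Twist2 and 0.0518 for Dlx3). The median of the 16 regulators was -0.41. Atf4 (-0.45), Twist1 (-0.39) and Cbfb (-0.15), the partner subunit of Runx proteins, did not pass the test.

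Of 20 BMP pathway genes, 14 were tested, none was called higher and 2 were called lower, the inhibitors of differentiation Id1 and Id3, which are direct targets of BMP signalling. Id1 fell from 13.9 and 16.3 CPM to 6.67 and 7.96 CPM (log2 fold change -1.01, adjusted p by edgeR = 0.0327), and Id3 from 81.2 and 86.1 CPM to 58.0 and 55.3 CPM (log2 fold change -0.51, adjusted p by edgeR = 0.0329). With no filter on low counts the change of Id3 was -0.47, under the threshold of size. The median of the 14 genes was 0.05. The ligand gene Bmp2 had a log2 fold change of 1.498 and the antagonist gene Nog of 1.02, neither past the adjustment (adjusted p by edgeR = 0.173 and 0.184).

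Of 19 Wnt pathway genes, 14 were tested and 2 were called, both higher. Lrp6, a Wnt co-receptor, rose from 59.6 and 54.4 CPM to 111.3 and 104.3 CPM (log2 fold change 0.98, adjusted p by edgeR = 0.00581), and Rspo3, a secreted enhancer of Wnt signalling, from 4.11 and 2.36 CPM to 7.71 and 7.96 CPM (log2 fold change 1.40, adjusted p by edgeR = 0.0430). The median of the 14 was 0.38.

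Of 20 matrix and mineralisation genes, 15 were tested. Fbln1, an extracellular matrix glycoprotein, rose from 4.97 and 3.42 CPM to 15.9 and 12.3 CPM (log2 fold change 1.86, adjusted p by edgeR = 0.0128). Smpd3, a sphingomyelinase required for normal bone mineralisation, fell from 20.6 and 21.1 CPM to 3.17 and 3.42 CPM (log2 fold change -2.61, adjusted p by edgeR = 0.00185), a difference many times the spread within either treatment. Col1a1 and Col1a2, the chains of type I collagen, had log2 fold changes of 0.98 and 0.14 and did not pass the test (adjusted p by edgeR = 0.147 and 0.762). Phospho1, the phosphatase of matrix vesicles, was at -1.51 (adjusted p by edgeR = 0.228).

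Of 14 receptor and surface genes, 13 were tested and 1 was called. Vdr, the vitamin D receptor, rose from 2.399 and 2.89 CPM to 9.33 and 6.76 CPM (log2 fold change 1.64, adjusted p by edgeR = 0.0229), and Pth1r, the parathyroid hormone receptor, was at -0.09 (adjusted p by edgeR = 0.934). Of 9 osteocyte genes, 5 were tested and Fam20c, the kinase that phosphorylates secreted matrix proteins such as osteopontin, rose from 245.4 and 184.3 CPM to 377.5 and 405.3 CPM (log2 fold change 0.93, adjusted p by edgeR = 0.0214). Among the bone-resorbing osteoclast markers, Acp5 and Clcn7 were called higher and Itgb3 lower, and Calcr had 0 counts in the 4 libraries. Pparg, the regulator of the adipocyte fate, fell by 1.16 on the log2 scale (adjusted p by edgeR = 0.00598). The 8 chondrocyte markers summed to at most 12.2 CPM and the 8 endothelial markers to at most 19.4 CPM.

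**Figure D4:**
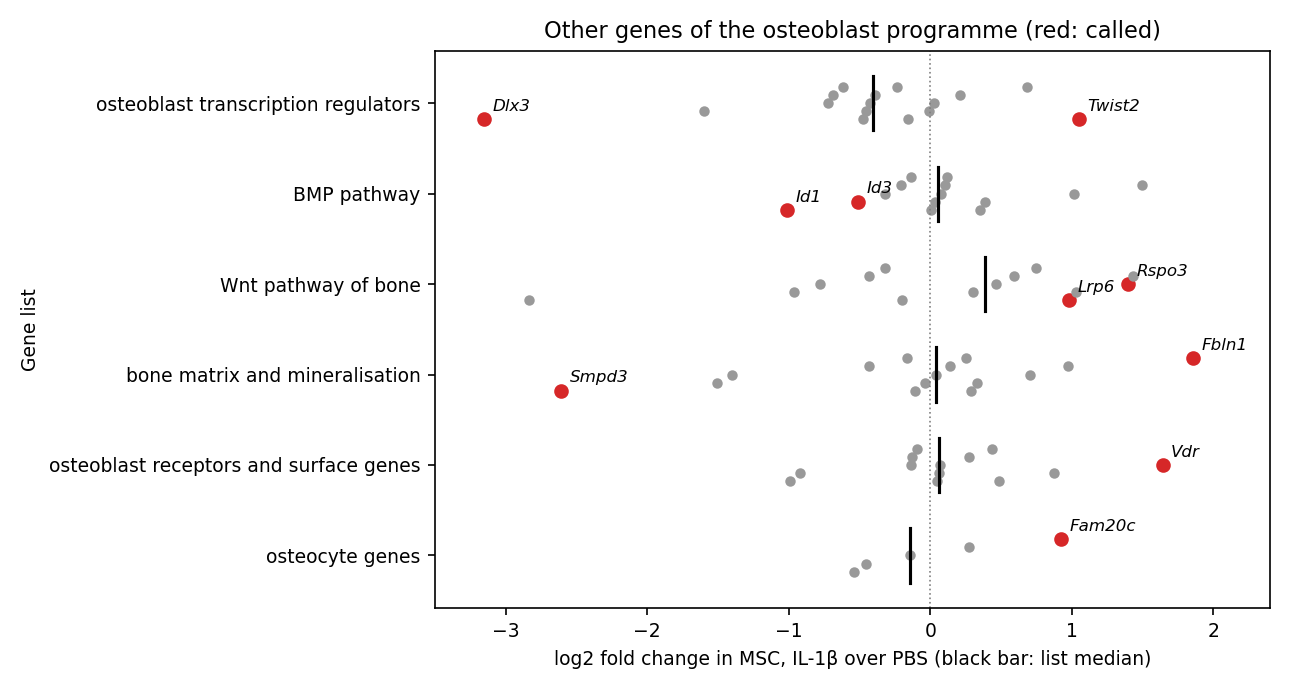
Log2 fold change of IL-1β over PBS in MSC (x axis) for the tested genes of 6 lists of the osteoblast programme (y axis), with called genes in red and named, other genes in grey and a black bar at each list's median. The called genes run from -3.15 (Dlx3) to 1.86 (Fbln1), and the list medians lie between -0.41 and 0.38.

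In the sorted blood cells only Runx2 and Spp1 had enough counts to be tested, and neither was called in LSK cells, where 0.632% of 13132 genes tested were called in either direction, or in LK cells, where 9.34% of 12835 were. In LSK cells Runx2 was at 114.7, 63.5 and 87.9 CPM with PBS (replicates 1 to 3) and at 42.7 and 26.9 CPM with IL-1β. Both IL-1β libraries lay below all 3 PBS libraries, which held for 27% of the genes tested in this direction. The log2 fold change was -1.17 (standard error 0.31, 95% interval -1.77 to -0.57), 2.25-fold lower, and missed the threshold (adjusted p by edgeR = 0.110). DESeq2's Wald test called it (log2 fold change -1.14, adjusted p by DESeq2 = 0.0176), as did edgeR with no filter on low counts (adjusted p by edgeR = 0.00838) and in 1 fit of all 14 libraries (adjusted p by edgeR = 0.0126). The fits that each left out 1 library gave log2 fold changes from -1.52 to -0.88, with no call.

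The markers of the LSK fraction itself moved with Runx2. The 10 stem and progenitor markers had a median log2 fold change of -0.71 in LSK cells against -0.06 over all genes, with 8 of the 10 showing no overlap between the lower IL-1β and the PBS libraries and Flt3 and Hlf among those called lower. Their summed level was 2182 to 3147 CPM with PBS and 1521 and 1846 CPM with IL-1β. Their part in the lower Runx2 level was not tested.

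In LK cells Runx2 was at 18.4, 26.9 and 25.7 CPM with PBS and at 30.7 and 23.4 CPM with IL-1β, and the treatments overlapped (log2 fold change 0.24, standard error 0.20, 95% interval -0.16 to 0.63, adjusted p by edgeR = 0.509). The difference between the LSK and the LK response, tested as an interaction over all 14 libraries, was -1.33 (standard error 0.36) and missed the threshold (adjusted p by edgeR = 0.110). This fit treats all libraries as independent, although LSK and LK cells may have been sorted from the same mice. The same test gave 0.78 for MSC against LSK (adjusted p by edgeR = 0.211) and -0.55 for MSC against LK (adjusted p by edgeR = 0.639).

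**Figure D5:**
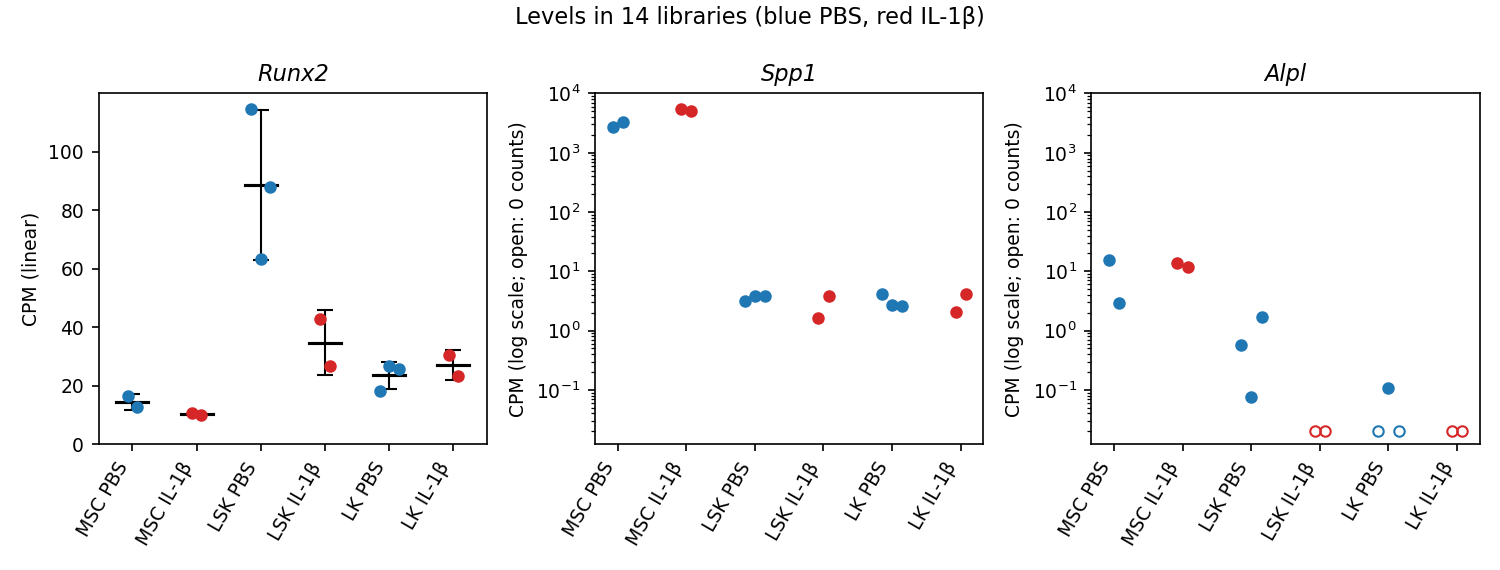
CPM of Runx2 (linear axis, with bars for the mean and SD), Spp1 and Alpl (log axes, open circles for 0 counts) in each of the 14 libraries, grouped by population and treatment (blue PBS, red IL-1β). Runx2 is highest in LSK cells with PBS at 63.5 to 114.7 CPM, whereas Spp1 and Alpl are highest in MSC.

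Spp1 was near 3 CPM in both blood fractions. In LSK cells it was at 3.20, 3.85 and 3.87 CPM with PBS and at 1.62 and 3.87 CPM with IL-1β (log2 fold change -0.27, 95% interval -1.78 to 1.23, adjusted p by edgeR = 0.877), and in LK cells at 4.22, 2.75 and 2.57 CPM with PBS and at 2.09 and 4.08 CPM with IL-1β (log2 fold change -0.01, 95% interval -0.93 to 0.90, adjusted p by edgeR = 0.988). The treatments overlapped in both fractions. The response of Spp1 in MSC exceeded that in LSK cells by 1.28 (standard error 0.50) and that in LK cells by 0.99 (standard error 0.49), and neither difference passed the adjustment (adjusted p by edgeR = 0.127 and 0.423).

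Alpl had 7, 1 and 28 counts in the LSK libraries with PBS and none with IL-1β, so that it was at least 3.75-fold lower against a floor of 3 counts over the IL-1β group. The bound was 1.37-fold without PBS replicate 3, 1.26-fold without IL-1β replicate 1 and 2.49-fold without IL-1β replicate 2. The PBS libraries differed widely, at 0.575, 0.0755 and 1.72 CPM, and the gene was not tested after the filter (adjusted p by edgeR = 0.305 with no filter). In LK cells Alpl had 2 counts, both in PBS replicate 2. Dlx5 and Dmp1 had 0 counts in all 10 blood cell libraries, and Sp7, Ibsp, Bglap and Phex had at most 7 counts in any of them. PBS replicate 2 of LK held all 7 Bglap and both Ibsp counts of that fraction and had counts for 7 of the 9 genes.

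Across the 6 groups the order of levels thus differed between the genes. For Runx2 it ran from LSK with PBS (88.7 ± 25.6 CPM, SD, n = 3) over LSK with IL-1β (34.8 ± 11.2, n = 2), LK with IL-1β (27.1 ± 5.17, n = 2) and LK with PBS (23.6 ± 4.62, n = 3) to MSC with PBS (14.6 ± 2.66, n = 2) and MSC with IL-1β (10.3 ± 0.347, n = 2). In this order the libraries of LSK with IL-1β overlapped those of LK with IL-1β, and these overlapped those of LK with PBS, while the other neighbours did not overlap. For Spp1 the 2 MSC groups came first (5203 ± 269 CPM with IL-1β and 2973 ± 395 with PBS, SD, n = 2 each), and the 4 blood cell groups, at means of 2.74 to 3.64 CPM, overlapped each other.

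Under PBS, MSC were compared with each blood fraction in 1 fit of all 14 libraries. In this comparison cell type, genotype (wild-type against Jak2V617F), culture and sorting cannot be told apart. Against LSK cells 5 of the 9 genes were tested, and 4 were called higher in MSC and 1 lower, where 31.2% of all genes tested were called higher and 27.2% lower. Sp7, Dlx5 and Alpl passed the filter on low counts only through the MSC libraries. Their calls higher in MSC were therefore nearly fixed by the filter, and the count of 4 is no result about the set. Spp1 was higher by a log2 fold change of 10.12 (standard error 0.37, adjusted p by edgeR = 9.63e-11) and Alpl by 3.92 (standard error 0.92, adjusted p by edgeR = 0.00280). Alpl was not called without MSC PBS replicate 2 (log2 fold change 2.37, adjusted p by edgeR = 0.0737). Sp7 and Dlx5 had no count in LSK cells with PBS, and were at least 42.4-fold and 36.6-fold higher in MSC against a floor of 3 counts over the LSK group. These bounds rested on single libraries. Without MSC PBS replicate 2 both were 21.1-fold, without LSK PBS replicate 3 they were 25.9-fold for Sp7 and 22.3-fold for Dlx5, and without MSC PBS replicate 3 they were 90.5-fold and 71.4-fold. DESeq2 did not call Dlx5 (adjusted p by DESeq2 = 0.140). Ibsp and Bglap, which were not tested, were at least 53.4-fold and 5.85-fold higher by the same measure, and most of their MSC counts came from PBS replicate 2. Without it the bound for Ibsp was 10.6-fold and Bglap had no MSC count left. Without MSC PBS replicate 3 the bounds were 150.03-fold and 19.1-fold, and without LSK PBS replicate 3 they were 32.6-fold and 3.57-fold. Runx2 was lower in MSC by 2.15 on the log2 scale, 4.42-fold (standard error 0.27, adjusted p by edgeR = 1.16e-05).

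Against LK cells the same 4 genes were called higher in MSC and none lower, where 31.9% of all genes tested were called higher and 29% lower. The filter limits the reading of this count in the same way. Spp1 was higher by a log2 fold change of 10.16 (standard error 0.37, adjusted p by edgeR = 8.11e-11). From 2 counts in LK cells Alpl was 154-fold higher (exact 95% counting interval 41.8 to 1285), and from 3 counts Sp7 was 46.2-fold higher (15.03 to 230.3). The intervals cover counting error only. Without MSC PBS replicate 2 Alpl was 67.2-fold (17.40 to 575) and Sp7 23.0-fold (6.81 to 120.8) higher, and without MSC PBS replicate 3 the ratios were 349.7-fold and 98.4-fold. Without LK PBS replicate 2, which held both Alpl counts, Alpl was at least 60.7-fold and Sp7, from 1 count, 81.8-fold higher (14.12 to 3288). Dlx5, with no LK count, was at least 39.8-fold higher, though DESeq2 did not call it (adjusted p by DESeq2 = 0.136). This bound was 22.98-fold without MSC PBS replicate 2, 23.5-fold without LK PBS replicate 2 and 77.7-fold without MSC PBS replicate 3. Runx2 did not pass the test (log2 fold change -0.42, 95% interval -0.93 to 0.09, adjusted p by edgeR = 0.173). The 2 comparisons share the MSC libraries.

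Genes with a level pattern most like that of each tested member were sought among 15392 genes, by the root mean square difference of log2 CPM over the 6 group means, each centred on its own mean. For Spp1 the nearest was Pltp (0.15), then C1qa (0.25), a macrophage marker, and Col1a1 (0.26), a mesenchymal one. For Runx2 they were Ggt1 (0.17), Rfx3 (0.20) and Ptgds (0.20), and for Alpl Sfrp1 (0.09), Bmf (0.14) and Pira2 (0.16). For Sp7 and Dlx5, which are at or near 0 counts in 4 of the 6 groups, the nearest were Des (0.07) and 2210011C24Rik (0.02), and so low a level leaves many genes alike. The points of each pattern share libraries and depth.

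Of the other osteoblast programme genes, 42 were tested in LSK and 37 in LK cells. Over all genes tested, 0.632% in LSK and 9.34% in LK cells were called in either direction. In LSK cells 1 was called, Id1, which rose from 1.97, 0.227 and 1.17 CPM to 19.3 and 28.5 CPM (log2 fold change 4.605, adjusted p by edgeR = 0.0207). In LK cells Id1 (log2 fold change 2.52, adjusted p by edgeR = 0.00669) and Igf1r (0.64, adjusted p by edgeR = 0.0327) were called higher, and Il6st (-1.42, adjusted p by edgeR = 0.00919) and Sfrp4 (-1.52, adjusted p by edgeR = 0.04999) lower. Id1 was thus called higher in both blood fractions and lower in MSC.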

How the data were processed

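RNA-seq of 14 libraries was used. The authors deposited counts of read pairs per gene, without normalization. Per the labels and file headers they trimmed with fastp 0.20.0, aligned with HISAT2 2.0.1 to GRCm38 and counted with featureCounts 2.0.2 (reverse-stranded, Ensembl 100) after rRNA depletion. The methods name GenomicAlignments for the counting. The header names 1 more MSC library with IL-1β, which was not analysed here. No 2 libraries agreed within sampling noise.

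Tests used edgeR 4.0.16 in R 4.3.3 (filterByExpr, TMM, glmQLFit with robust estimation, glmQLFTest) within each population. The alternatives were DESeq2 1.42.0, limma-voom (limma 3.58.1), other size factors and filters, no fold-change threshold, 1 fit of all libraries, the replicate number as a block, the Bglap genes merged, and each library left out. The interaction between populations and the count ratios without single libraries were added after seeing the data. The script was checked on simulated counts. Named genes were the 9 members, the Bglap copies, every called gene of each osteoblast list up to 4 per direction, the 3 most abundant genes of marker lists and the 3 nearest patterns. Atf4, Twist1, Cbfb, Bmp2, Nog, Col1a2, Phospho1, Pth1r, marker genes beyond the most abundant, and the genes called in LSK and LK cells were named after their values were seen. Members and lists were chosen with earlier results of these data known. Floors cover counting error only, since PCR copies are not independent molecules. The simulation gave no value quoted here.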

Additional observations from a re-analysis of the deposited data

How the results depend on the processing

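With 2 libraries per treatment in MSC, the calls rested on single libraries. Of the 9 genes, 1 was called higher and 0 lower in MSC. In 1 fit of all libraries 0 were called higher, and with no filter on low counts 3 were called lower (Phex, Ibsp and Sp7). With each MSC library left out in turn, from 0 (either IL-1β library) to 2 (PBS replicate 2: Alpl and Spp1) were called higher and from 0 to 3 lower (PBS replicate 3: Ibsp, Sp7 and Runx2). In LSK cells 0 were called lower, and 1, Runx2, was called with no filter, with DESeq2, in 1 fit of all libraries and with the replicate number as a block (log2 fold change -1.18, adjusted p by edgeR = 0.0230). The numbers do not pair the LSK or LK libraries, since the treatments used different mice. The deviations of same-numbered libraries correlated at 0.19 and -0.02 in LSK and at -0.14 and 0.09 in LK cells. These correlations cannot decide on pairing, because the deviations of 2 IL-1β libraries from their mean are mirror images. No paired analysis was possible because, for MSC, the treatments share only number 2. Between MSC and LSK cells under PBS, 3 genes were called higher without MSC PBS replicate 2 and 7 without MSC PBS replicate 3.

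Of the other osteoblast genes in MSC, 6 were called higher and 4 lower. The counts lower were 7 with upper-quartile factors, 7 with no filter (12 higher) and 8 with limma-voom, and in 1 fit of all libraries 0 were called higher and 0 lower. With each MSC library left out, 0 to 22 were called higher and 0 to 19 lower. Upper-quartile factors turned the balance of all genes in MSC to 817 higher and 831 lower. With Dlx5 in MSC, limma-voom gave a log2 fold change of 0.17, and the fits without 1 library gave -0.97 to 0.76. For Alpl in MSC those fits gave -0.16 to 2.20, for Spp1 in LSK cells -1.01 to 0.26 and in LK cells -0.56 to 0.39. Across all alternatives, 505 fitted fold changes kept their direction and side of the threshold, 83 lost a call, 8 gained one and 6 turned direction. The causes were not tested, beyond the fewer libraries of the fits that left one out. Bglap, Phex and Dmp1 had at most 9 counts in any library, which limits what could be detected for them at these depths.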
